A study of Rattus norvegicus with 12 samples.

Results

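The DnaJ or Hsp40 co-chaperones were followed 6 h after surgery in the calvaria of the rat, the flat bones that roof the skull. Members were all genes whose name on the array began with Dnaja, Dnajb or Dnajc followed by a digit and whose signal was well above background on at least 4 of 12 arrays. With several probes, the one with the highest mean was used. This gave 42 genes of 22926 tested, namely 4 of class A, 12 of class B and 26 of class C. Of 45 such names, Dnajb7, Dnajc5b and Dnajc5g were left out because they were well above background on 0 arrays.

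The 3 groups of rats, 10 weeks old, were compared, with 4 one-colour arrays each. In the laser group a rectangular defect of 8 by 3 mm was cut with 3 strokes of an Er:YAG laser, an infrared laser absorbed by water, at 127 mJ per pulse and 20 Hz. In the bur group a defect of that size was drilled with a rotating bur. Control animals had the periosteum removed and the bone left uncut, so all 3 groups had lost the periosteum. The labels name no strain and do not say whether each sample was a different animal. The p-values therefore reflect only how far these samples vary, which may be technical.

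DnaJ proteins carry a J domain that stimulates the ATPase of Hsp70 and so fixes Hsp70 to its client protein. Classes A and B resemble bacterial DnaJ in whole or in part and bind unfolded clients themselves. Class C members share only the J domain and direct Hsp70 to one place or task, such as the endoplasmic reticulum (ER), mitochondria, clathrin coats or ribosomes. Heat shock factor 1 induces Dnaja1, Dnajb1 and Dnajb4 when proteins unfold in the cytosol, while the unfolded protein response of the ER induces Dnajb9, Dnajb11 and Dnajc3.

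The promoters of 3 members are shown because they carry the elements of these responses. The RefSeq table for GRCr8 held 33469 promoters of 300 bases, from 250 before to 50 after the start of the gene, and 33 of the 42 members had an entry. Capitals mark inverted pairs of heat shock units (GAANNTTC or TTCNNGAA, on either strand, each the reverse complement of itself) in Dnaja1 and Dnajb1, and the ER stress element in Dnajc3. The Dnajc3 promoter was chosen after values were seen, because of that element.
Dnaja1, chr5:60638154-60638453, plus strand: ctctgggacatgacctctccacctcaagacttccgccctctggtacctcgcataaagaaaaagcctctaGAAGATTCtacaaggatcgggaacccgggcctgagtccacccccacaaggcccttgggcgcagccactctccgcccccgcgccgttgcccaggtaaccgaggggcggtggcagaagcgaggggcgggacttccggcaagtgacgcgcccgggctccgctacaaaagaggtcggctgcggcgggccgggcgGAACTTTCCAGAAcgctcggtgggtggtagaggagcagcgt
Dnajb1, chr19:41431092-41431391, minus strand: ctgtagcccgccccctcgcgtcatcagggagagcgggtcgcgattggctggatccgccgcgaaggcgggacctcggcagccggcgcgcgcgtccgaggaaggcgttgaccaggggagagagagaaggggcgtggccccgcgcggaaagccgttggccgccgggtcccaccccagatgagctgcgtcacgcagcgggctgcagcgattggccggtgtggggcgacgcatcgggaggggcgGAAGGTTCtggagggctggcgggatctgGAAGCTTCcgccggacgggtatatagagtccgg
Dnajc3, chr15:102432417-102432716, plus strand: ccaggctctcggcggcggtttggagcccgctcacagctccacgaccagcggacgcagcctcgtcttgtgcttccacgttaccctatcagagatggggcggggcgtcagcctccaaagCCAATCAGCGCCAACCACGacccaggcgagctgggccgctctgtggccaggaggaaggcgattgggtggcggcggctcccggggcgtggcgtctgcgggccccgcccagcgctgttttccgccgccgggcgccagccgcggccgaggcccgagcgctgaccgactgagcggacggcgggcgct
In the Dnaja1 promoter one inverted pair starts 181 bases before the start of the gene, and another 2 pairs, which share a unit of 3 bases, start 9 and 14 bases after it. The Dnajb1 pairs start 11 bases before and 17 bases after the start of the gene. One or the other 8-letter pair was found in 15.9% of all promoters in the table and in 5 of the 33 member promoters, those of Dnaja1, Dnajb1, Dnajb6, Dnajc18 and Dnajc27. Dnaja1 alone among the 33 held 3 alternating units in a row, which 0.798% of all promoters held. The ER stress element was found in 0.0657% of all promoters and, among the 33, in that of Dnajc3. These matches describe the letters of the window and are not measured binding sites.

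Levels below are log2 signals relative to the 75th percentile of the same array, so they compare samples for one probe and not one gene with another. That percentile ranged from 197.2 to 383.2 units of processed signal, and 67.8% to 73.7% of spots were well above background. A single slide held all 4 control arrays, while the 8 treated arrays were shared between 2 further slides with 2 laser and 2 bur arrays each. Spike-in spots read 8.13 to 8.83 on treated and 4.92 to 5.34 on control arrays in log2 processed signal. In both comparisons with control, treatment and slide therefore cannot be told apart. In bulk tissue, fewer cells of a type and less RNA per cell cannot be told apart either.

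In laser-ablated against control bone, 11 of the 42 DnaJ genes rose and 8 fell at an adjusted p below 0.05, while 23 did not pass. Over all genes tested, 32.2% were called higher and 17.6% lower, against 26.2% and 19.0% of the members, so the share of DnaJ genes called was near that of all genes. In bur-drilled against control bone, 10 rose, 7 fell and 25 did not pass, beside 32.7% and 18.3% of all genes. The median log2 fold change of the members was 0.23 in laser bone and 0.10 in bur bone, against 0.21 and 0.23 over all genes. Relative to the median of all genes the family thus lay 0.02 higher in laser bone and 0.13 lower in bur bone, with 23 and 18 of 42 members above that median. These offsets were small and moved with the processing. The bur offset was above 0 with normexp, a background correction that adds an offset (0.06, 22 of 42 members above) and with only the bur arrays of replicates 3 and 4 (0.03, 22 above), and the laser offset was 0.15 with normexp and below 0 without laser replicate 4 or control replicate 1 (-0.0045 and -0.02). The median of all genes itself moved with the scaling, to 0.10 in laser and 0.05 in bur bone when arrays were scaled on their medians. With that scaling the calls were 8 higher and 8 lower in laser bone and 7 higher and 8 lower in bur bone. Dnajb8 and Dnajb13 met the filter on dim signal almost wholly through the groups where they were high, so that their calls follow in part from the filter. With only the 37 members well above background on all 12 arrays, 11 were higher and 6 lower in laser bone, and 9 were higher and 6 lower in bur bone.

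Both comparisons used the same control arrays, so their values are set side by side and their overlap is not read as a result. Counts by class and role below stand beside the shares of all genes. These were 32.2% higher and 17.6% lower in laser bone, and 32.7% and 18.3% in bur bone. Class A had 2 genes higher and 1 lower in laser bone and 0 higher and 1 lower in bur bone, with medians of 0.30 and -0.0045. Class B had 3 higher and 3 lower, against 2 and 3 in bur bone, with medians of 0.16 and 0.02. Class C had 6 higher and 4 lower, against 8 and 3 in bur bone, with medians of 0.25 and 0.20.

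**Figure D1:**
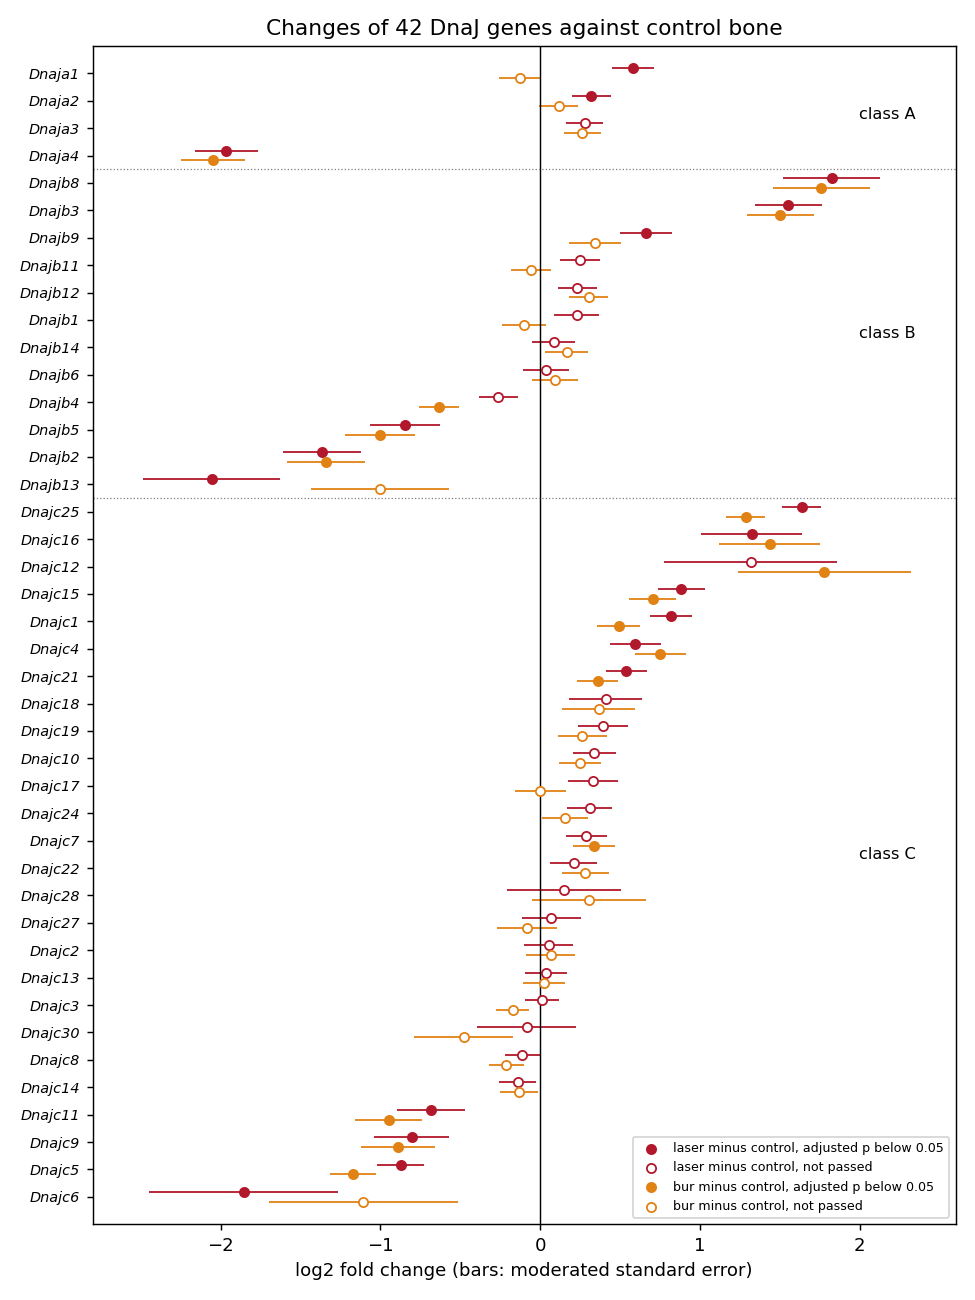
Log2 fold change of 42 DnaJ genes (horizontal axis, bars are moderated standard errors) in laser minus control (red) and bur minus control (orange) bone, by class. Filled points have an adjusted p below 0.05, and the points of Dnajb8 and Dnajb13 use signals at background in at least 1 group. The 4 class A genes lie between -1.96 and 0.58 in laser bone, with Dnaja4 at the low end, and Dnaja1 is above 0 in laser bone only, at 0.58 against -0.12 in bur bone.

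Of the 9 general Hsp70 partners of the cytosol and nucleus, 2 rose and 3 fell in laser bone, and 1 rose and 4 fell in bur bone. These were 22.2% and 33.3% of the 9 in laser bone, beside 32.2% and 17.6% of all genes. In bur bone they were 11.1% and 44.4%, beside 32.7% and 18.3% of all genes. Dnaja1, a farnesylated class A partner of Hsp70 (probe at chr5:58111641-58111700 on RGSCv3.4), read 2.2, 2.23, 2.6 and 2.5 in laser samples, 1.48, 1.60, 1.82 and 1.81 in bur samples and 1.80, 1.89, 1.67 and 1.84 in control samples. All 4 laser samples were above every bur and control sample, while bur and control overlapped. Dnaja1 was 1.5-fold higher in laser than control bone (log2 0.58, SE 0.13, adjusted p = 0.00458) and did not pass in bur bone (log2 -0.12, SE 0.13, adjusted p = 0.440). Scaled on array medians, the laser difference was 0.47 and no longer passed (adjusted p = 0.0619).

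Dnajb1, the major heat-inducible class B partner (chr19:26214035-26214094), averaged 1.77 ± 0.20 in laser, 1.45 ± 0.17 in bur and 1.55 ± 0.16 in control samples (SD, n = 4 each). All 3 groups overlapped, and neither comparison with control passed (log2 0.23, SE 0.14, adjusted p = 0.194 for laser and log2 -0.10, SE 0.14, adjusted p = 0.560 for bur). Dnajb4, another heat-inducible class B gene, read -0.49 to -0.30 in laser, -0.98 to -0.57 in bur and -0.28 to 0.05 in control samples. The 3 ranges did not overlap, with bur lowest. Its fall passed in bur bone (log2 -0.63, SE 0.12, adjusted p = 0.00217) and not in laser bone (log2 -0.26, SE 0.12, adjusted p = 0.0995), where it passed with the percentile taken over probes detected on all arrays (log2 -0.37, adjusted p = 0.0231). A further Dnajb4 probe did not pass in bur bone (log2 0.05, SE 0.13), and its groups overlapped, so the fall is that of the probe used.

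Dnaja4, a class A gene (chr8:58262226-58262285), had the largest fall among members in bur bone. It read -2.15, -1.75, -1.79 and -1.92 in laser samples, -2.52, -1.94, -1.59 and -1.91 in bur samples and -0.26, 0.32, 0.15 and 0.03 in control samples. Every treated sample was over 1 unit below every control sample. It was 3.90-fold lower in laser bone (log2 -1.96, SE 0.20, adjusted p = 0.000115) and 4.14-fold lower in bur bone (log2 -2.05, SE 0.20, adjusted p = 0.000131), where the log2 value was -1.36 with normexp.

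Dnajb2, a class B protein that also binds ubiquitin and is rich in neurons, read 0.56, 1.07, 1.32 and 1.28 in laser samples, 0.42, 1.19, 1.53 and 1.20 in bur samples and 2.16, 2.70, 2.40 and 2.42 in control samples. No treated sample reached the lowest control sample, and the fold differences were 2.58 and 2.53 lower (SE 0.24 on the log2 scale, adjusted p = 0.00134 and 0.00154). Dnajb5, a class B gene close to background, fell as well (log2 -0.85, SE 0.22, adjusted p = 0.00856 in laser bone and log2 -1.0, SE 0.22, adjusted p = 0.00365 in bur bone). With normexp these differences were -0.31 and -0.42 (adjusted p = 0.0293 and 0.00656). With only the laser arrays of replicates 1 and 2, its laser fall of 0.65 did not pass (adjusted p = 0.0627). The 2 remaining members that passed in this group are named to complete the count. Dnaja2 rose in laser bone (log2 0.32, SE 0.12, adjusted p = 0.0471), a call lost without any single laser or control array (adjusted p between 0.050 and 0.119) and with other settings that include median scaling (log2 0.21, adjusted p = 0.360) and slide as a random block (adjusted p = 0.0884). Dnajc7, which ties Hsp70 to Hsp90, rose in bur bone by the probe used, and a further probe of it fell, as given with the other probes below.

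Falls in this group came with falls of erythroid and granulocyte precursor markers. Of 7 erythroid markers, 6 fell in both comparisons, and the mean level of the list ran from -0.03 to 3.11 in laser, 1.42 to 3.36 in bur and 4.24 to 4.93 in control samples. The laser and bur samples with the least of this list, replicate 1 of each, also had the lowest Dnajb2. Of 5 granulocyte precursor markers 4 fell in both, with mean levels of 0.38 to 2.41 in laser, 0.50 to 2.6 in bur and 3.69 to 4.0 in control samples. Of 4 monocyte and macrophage markers 2 fell in both. Their mean levels overlapped, at 1.06 to 1.14 in laser, 0.67 to 1.24 in bur and 0.98 to 1.32 in control samples. None of the listed markers except Tekt1 and Tnp1 was missing from the genes tested, and the part of these cells in the DnaJ differences was not tested.

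**Figure D2:**
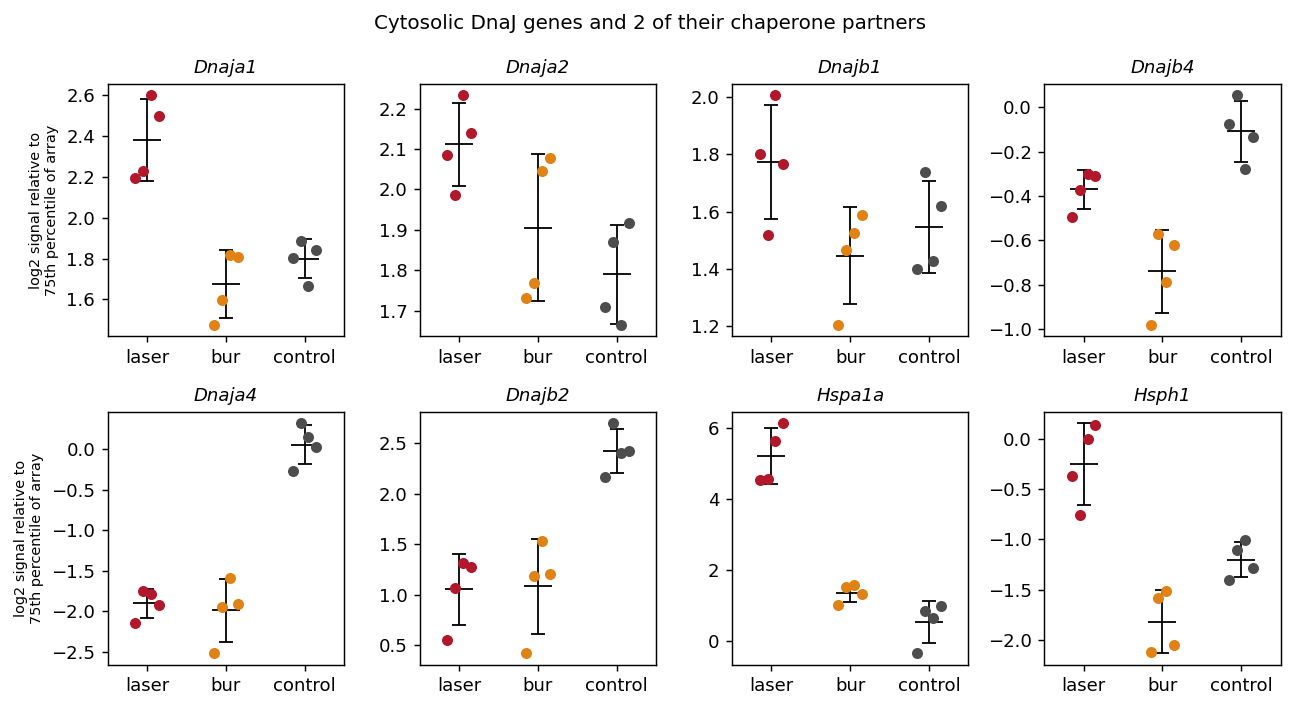
Log2 signal relative to the 75th percentile of the array (vertical axis, its range differs by panel) for 6 cytosolic DnaJ genes and 2 partners, with 4 laser, bur and control samples each. Points are samples and bars are mean and SD. Dnaja1 is highest in the 4 laser samples, Dnaja4 and Dnajb2 are lowest in both treated groups, and Hspa1a reads 4.53 to 6.14 in laser samples.

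None of the 11 members of the ER lumen and membrane fell in either comparison, beside 17.6% and 18.3% of all genes called lower. In laser bone 4 rose (36.4%, beside 32.2% of all genes) and 7 did not pass. In bur bone 3 rose (27.3%, beside 32.7% of all genes) and 8 did not pass. The share that rose was thus near that of all genes. Group medians were 0.34 and 0.30, against 0.21 and 0.23 over all genes. Dnajc25, a membrane J protein (chr5:77072720-77072779), read 1.69, 1.42, 1.54 and 1.70 in laser samples, 1.33, 1.01, 1.23 and 1.39 in bur samples and 0.11, -0.18, -0.10 and -0.03 in control samples. The 3 groups did not overlap, with laser highest and control lowest. It was 3.11-fold higher in laser bone (log2 1.64, SE 0.12, adjusted p = 6.37e-05) and 2.44-fold higher in bur bone (log2 1.29, SE 0.12, adjusted p = 0.000131). Dnajc1, which binds ribosomes at the ER membrane, rose in laser bone (log2 0.82, SE 0.13, adjusted p = 0.000864) and in bur bone (log2 0.49, SE 0.13, adjusted p = 0.0112). Its laser samples read 3.11 to 3.56, its bur samples 2.76 to 3.23 and its control samples 2.47 to 2.67. The bur difference did not pass with median scaling (log2 0.31, adjusted p = 0.172) or with the mean of its probes (log2 0.19, adjusted p = 0.228). Nor did it pass on the treated slide with replicates 1 and 2 (log2 0.40, adjusted p = 0.0820). In the authors' deposited normalized table, refitted here with limma, it did not pass either (log2 0.20, adjusted p = 0.164). Dnajc16, an ER membrane protein with a dim probe, was higher by 1.33 and 1.44 (SE 0.32 each, adjusted p = 0.00592 and 0.00395), but by only 0.18 and 0.15 with normexp, where neither passed (adjusted p = 0.404 and 0.482).

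Of the 3 members that the unfolded protein response induces, 1 rose in laser bone and 0 passed in bur bone. Dnajb9, or ERdj4, which holds the sensor IRE1 in check, read 1.17, 0.81, 1.16 and 1.02 in laser samples, 0.63, 0.73, 0.45 and 1.07 in bur samples and 0.23, 0.38, 0.21 and 0.69 in control samples. Laser and control samples did not overlap, and the 1.59-fold rise passed in laser bone (log2 0.66, SE 0.16, adjusted p = 0.00680). In bur bone it read log2 0.34 above control (SE 0.16, adjusted p = 0.0967), and without control replicate 4 that value was 0.45 and passed (adjusted p = 0.0486). The authors' own comparison called Dnajb9 higher in bur bone (log2 0.40, adjusted p = 0.0368). Dnajb11, or ERdj3, a BiP partner of the ER lumen, averaged 1.91 ± 0.14 in laser, 1.60 ± 0.18 in bur and 1.66 ± 0.11 in control samples (SD, n = 4 each) and did not pass (adjusted p = 0.117 and 0.707). Dnajc3, the inhibitor of the kinase PERK whose promoter is shown above, averaged 1.88 ± 0.07, 1.69 ± 0.15 and 1.87 ± 0.05 in laser, bur and control samples (SD, n = 4 each). It did not pass in laser bone (log2 0.01, SE 0.11, adjusted p = 0.940) or in bur bone (log2 -0.17, SE 0.11, adjusted p = 0.188). In bur bone the refit of the authors' deposited normalized table put it past the threshold (log2 -0.32, adjusted p = 0.00742). The authors' own comparison also called Dnajc3 lower in bur bone (log2 -0.32, adjusted p = 0.0127). Their partner chaperone BiP, Hspa5, did not pass in either comparison (log2 -0.01 and -0.15, adjusted p = 0.949 and 0.411).

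Markers of osteoblasts and osteocytes, cells that secrete bone matrix through the ER, were read beside these genes. All 10 were measured. Of these, 9 rose and 1 fell in laser bone and 9 rose in bur bone, and their mean level ran from 3.74 to 4.04 in laser, 3.61 to 4.18 in bur and 2.27 to 2.93 in control samples. Their part in the ER results was not tested.

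Among 7 mitochondrial members, 2 rose and 1 fell in each comparison (28.6% and 14.3%). Of all genes, 32.2% and 17.6% were called higher and lower in laser bone, and 32.7% and 18.3% in bur bone. Dnajc15, an inner membrane protein that restrains respiratory complex I, read 2.22, 2.04, 2.6 and 2.17 in laser samples, 1.87, 2.17, 2.07 and 2.2 in bur samples and 1.31, 1.62, 1.29 and 1.26 in control samples. Every treated sample was above every control sample (log2 0.88, SE 0.15, adjusted p = 0.000956 in laser bone and log2 0.70, SE 0.15, adjusted p = 0.00306 in bur bone). Dnajc4 rose by 0.60 in laser bone (SE 0.16, adjusted p = 0.0107) and by 0.75 in bur bone (SE 0.16, adjusted p = 0.00333), and a further probe rose too, by 1.07 and 1.01. Its laser difference was 0.49 with median scaling (adjusted p = 0.0667) and 0.62 with only the laser arrays of replicates 3 and 4 (adjusted p = 0.0620), and passed in neither. With normexp the differences were 0.33 and 0.43.

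Dnajc11, of the outer mitochondrial membrane, averaged -2.45 ± 0.22 in laser, -2.72 ± 0.45 in bur and -1.77 ± 0.16 in control samples (SD, n = 4 each). It was lower without overlap in both (log2 -0.68, SE 0.21, adjusted p = 0.0200 and log2 -0.95, SE 0.21, adjusted p = 0.00412). The laser call was lost without laser replicate 1 (log2 -0.63, adjusted p = 0.0537), laser replicate 2 (log2 -0.61, adjusted p = 0.0546) or control replicate 3 (log2 -0.61, adjusted p = 0.0560). It was also lost with slide as a random block (adjusted p = 0.0580) and with only the laser arrays of replicates 3 and 4 (log2 -0.50, adjusted p = 0.0526). In the refit of the authors' deposited normalized table it did not pass (log2 -0.36, adjusted p = 0.0800), but it passed in the authors' own comparison (adjusted p = 0.0434). With normexp the differences were -0.40 and -0.53. Dnaja3, the class A protein of the matrix, averaged 0.63 ± 0.14 in laser, 0.61 ± 0.17 in bur and 0.35 ± 0.06 in control samples (SD, n = 4 each) and missed the threshold in both (log2 0.28 and 0.26, SE 0.12 each, adjusted p = 0.0683 and 0.0790). It passed in the refit of the authors' deposited normalized table (adjusted p = 0.0217 and 0.0430). In the authors' own comparisons it passed in laser bone (log2 0.32, adjusted p = 0.0294) and did not pass in bur bone (adjusted p = 0.0537). It passed in bur bone without bur replicate 1 (log2 0.34, adjusted p = 0.0298) and with array weights (adjusted p = 0.0373). A further Dnaja3 probe read the other way in laser bone (log2 -0.25, SE 0.10, adjusted p = 0.0645) and -0.03 in bur bone, and the mean of the probes in laser bone was 0.01, so no direction is given for the gene.

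**Figure D3:**
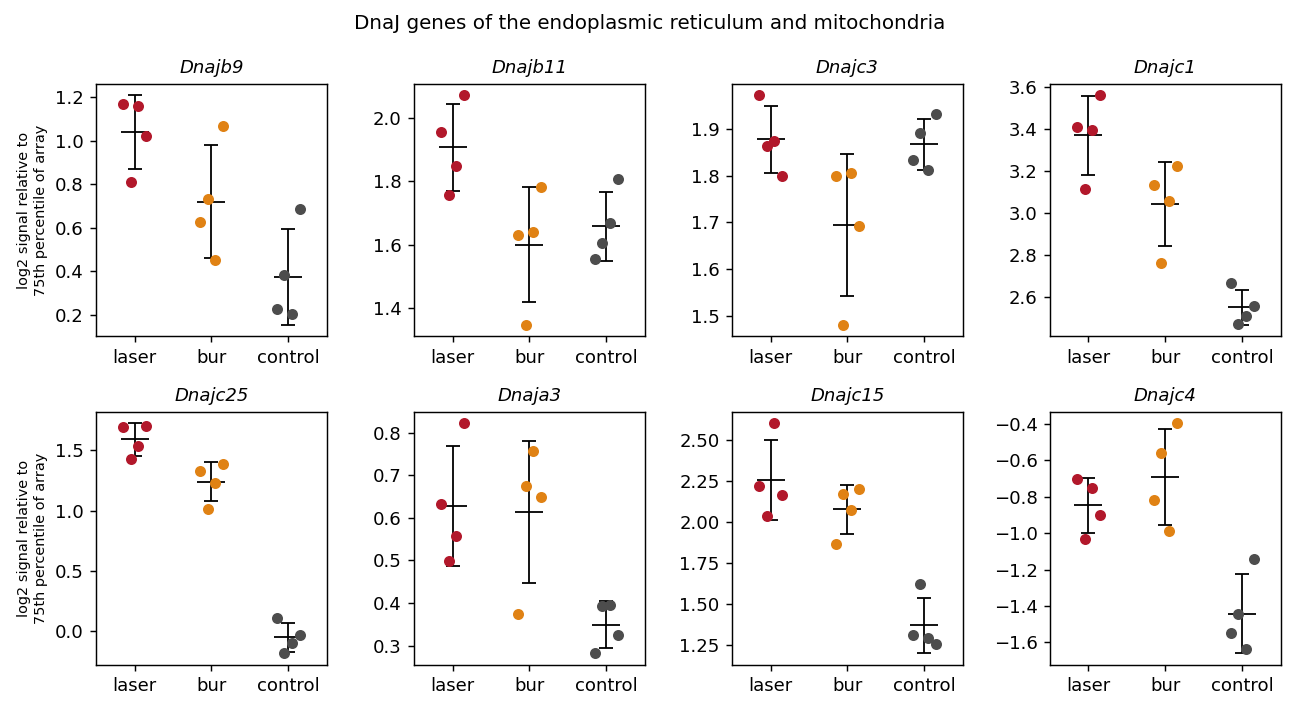
Log2 signal relative to the 75th percentile of the array (vertical axis, its range differs by panel) for 5 ER and 3 mitochondrial DnaJ genes in 4 laser, bur and control samples each. Points are samples and bars are mean and SD. Dnajc25 separates all 3 groups, Dnajc15 both treated groups from control, and Dnajc3 reads 1.80 to 1.97 in laser and 1.81 to 1.93 in control samples.

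Of the 3 members of vesicle traffic, 2 fell in laser bone and 1 in bur bone, beside 17.6% and 18.3% of all genes. Dnajc5, the cysteine string protein of secretory vesicles, read -0.24, -0.48, -0.22 and -0.25 in laser samples, -0.46, -0.88, -0.72 and -0.35 in bur samples and 0.44, 0.41, 0.71 and 0.74 in control samples. All treated samples were below all control samples (log2 -0.87, SE 0.14, adjusted p = 0.000899 in laser bone and log2 -1.17, SE 0.14, adjusted p = 0.000267 in bur bone). A further Dnajc5 probe read log2 0.24 in laser bone and 0.17 in bur bone and did not pass. In the authors' own comparison that probe was higher in laser bone (log2 0.34, adjusted p = 0.0456). Averaging the probes ended the laser call (log2 -0.32, adjusted p = 0.0745), so the laser fall is that of the probe used. Dnajc6, or auxilin, which strips clathrin coats and is rich in neurons, spread widely, at -4.10 to -2.82 in laser, -3.97 to -1.21 in bur and -2.94 to -0.82 in control samples. It passed in laser bone (log2 -1.86, SE 0.59, adjusted p = 0.0235) and not in bur bone (log2 -1.11, SE 0.59, adjusted p = 0.136), with values of -0.95 and -0.66 under normexp. The laser call was lost without laser replicate 1 (log2 -1.77, adjusted p = 0.0565), laser replicate 2 (log2 -1.64, adjusted p = 0.0629), control replicate 2 (log2 -1.66, adjusted p = 0.0643) or control replicate 3 (log2 -1.59, adjusted p = 0.0657), with slide as a random block (adjusted p = 0.0709) and on either treated slide alone (adjusted p = 0.0592 and 0.0915). The bur value passed without bur replicate 2 (log2 -1.61, adjusted p = 0.0330) or control replicate 4 (log2 -1.55, adjusted p = 0.0449). Of 6 neuron and glia markers 4 fell in each comparison, and their mean level ran from -5.04 to -3.26 in laser, -5.43 to -0.46 in bur and -2.06 to 0.17 in control samples. Bur replicate 2, the highest bur sample for these markers, and control replicate 4, the lowest control sample, stood at the same ends for Dnajc6, and the part of nerve tissue was not tested.

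The 5 members of the ribosome, nucleus and RNA had 1 rise and 1 fall in each comparison. These were 20% each, beside 32.2% and 17.6% of all genes in laser bone and 32.7% and 18.3% in bur bone. Dnajc9, a chaperone of histones H3 and H4, read 2.31, 2.84, 2.71 and 2.59 in laser samples, 2.14, 2.27, 3.17 and 2.53 in bur samples and 3.13, 3.8, 3.49 and 3.25 in control samples. Laser and control did not overlap, while bur replicate 3 lay just above the lowest control sample. Dnajc9 was 1.75-fold lower in laser bone (log2 -0.80, SE 0.23, adjusted p = 0.0149) and 1.85-fold lower in bur bone (log2 -0.89, SE 0.23, adjusted p = 0.00924), but with only the treated arrays of replicates 3 and 4 neither passed (log2 -0.77 and -0.57, adjusted p = 0.0507 and 0.113). All 6 proliferation markers fell in both comparisons, with mean levels of -1.57 to 0.67 in laser, -0.89 to 1.13 in bur and 1.94 to 2.83 in control samples. Laser replicate 1 and bur replicate 3 were the lowest laser and the highest bur sample both for these markers and for Dnajc9, and their part in the fall was not tested. Dnajc2, which sits on ribosomes beside the growing chain, averaged 3.02 ± 0.14 in laser, 3.04 ± 0.28 in bur and 2.97 ± 0.15 in control samples (SD, n = 4 each) and did not pass (adjusted p = 0.786 and 0.726). Dnajc8, also of this group, did not pass in laser or bur bone (log2 -0.11 and -0.21, adjusted p = 0.405 and 0.123). The authors' own comparisons called Dnajc8 lower in both (log2 -0.48 and -0.51, adjusted p = 0.00151 and 0.00117). Dnajc21, needed to mature the large ribosomal subunit, is named to complete the count. It rose in laser bone (log2 0.54, SE 0.13, adjusted p = 0.00608) and in bur bone (log2 0.36, SE 0.13, adjusted p = 0.0377). The bur call was lost without any one of 3 bur and 3 control arrays (adjusted p between 0.0503 and 0.0944). It was also lost with median scaling (log2 0.18, adjusted p = 0.387) and, at adjusted p between 0.0699 and 0.106, with the percentile over probes detected on all arrays, normexp, no filter on dim probes, slide as a random block and either treated slide alone. The laser call was lost with only the laser arrays of replicates 1 and 2 (log2 0.42, adjusted p = 0.0613).

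Of the 3 members known from testis or ciliated cells, each with a dim probe, 2 were called higher and 1 lower in laser bone. In bur bone 2 were higher and 0 lower. Of all genes, 32.2% and 17.6% were called higher and lower in laser bone, and 32.7% and 18.3% in bur bone. The calls of Dnajb8 and Dnajb13 follow in part from the filter, as given above, so these counts are not read as a result. Dnajb3 averaged -1.80 ± 0.38 in laser, -1.85 ± 0.33 in bur and -3.35 ± 0.14 in control samples (SD, n = 4 each), with no overlap between treated and control (log2 1.55 and 1.5, SE 0.21 each, adjusted p = 0.000323 and 0.000414). With normexp the differences were 0.56 and 0.51 (adjusted p = 0.00732 and 0.0109). Dnajb8, a class B protein that suppresses aggregation in human cells, was well above background on all 4 laser and all 4 bur arrays and on 0 control arrays. Its processed signal was at least 2.83-fold higher in laser bone and at least 2.70-fold higher in bur bone (adjusted p = 0.000908 and 0.00114). The bound takes, on each control array, the higher of its own signal and the lowest signal called well above background. It holds for the processed signal only. With normexp neither passed (log2 0.13 and 0.04, adjusted p = 0.472 and 0.833). In the refit of the authors' deposited normalized table the bur difference did not pass (log2 0.36, adjusted p = 0.0590). In the authors' own comparisons both differences passed, at only log2 0.41 and 0.36 (adjusted p = 0.0241 and 0.0397). Dnajb13, a radial spoke protein of cilia and sperm tails, was well above background on 0 laser arrays, 1 bur array and 4 control arrays. It was at least 2.32-fold lower in laser bone (adjusted p = 0.00305), a bound that holds for the processed signal, while with normexp the log2 difference was only -0.43 (adjusted p = 0.0148). With 1 of 4 bur arrays well above background, its bur difference rests mostly on signals at background, and it did not pass (adjusted p = 0.0717). It passed with replicate number as a block (adjusted p = 0.0463) and in 6 other settings, with normexp (log2 -0.40, adjusted p = 0.0199), quantile normalization (adjusted p = 0.0212), median scaling (adjusted p = 0.0445), bur and control arrays alone (adjusted p = 0.00840), array weights (adjusted p = 0.0492) and without bur replicate 3 (adjusted p = 0.0486). Dim probes as a whole leaned upward, since the dimmest of 5 equal groups of genes by mean level had a median log2 fold change of 0.56 in laser and 0.69 in bur bone. Of the 4 ciliated or testis markers 2 were measured and 1 of them rose in each comparison.

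Of the 4 remaining members, Dnajc12, a partner of the aromatic amino acid hydroxylases, passed in bur bone. It read -0.04, -0.23, -0.19 and 0.44 in laser samples, -0.74, 2.19, -0.63 and 0.99 in bur samples and -1.46, -1.35, -1.47 and -1.02 in control samples. Both treated groups were above control, and the bur samples spread over nearly 3 units, with bur replicate 2 again at the top. The bur rise was 1.78 (SE 0.54, adjusted p = 0.0185, or 0.0601 with slide as a random block) and the laser difference of 1.32 did not pass (SE 0.54, adjusted p = 0.0622). In a fit of laser and control arrays alone, the laser difference passed (adjusted p = 0.00141). It also passed with replicate number as a block (adjusted p = 0.0481), with array weights (adjusted p = 0.0336) and with only the laser arrays of replicates 3 and 4 (log2 1.45, adjusted p = 0.0394). The authors' own comparison called Dnajc12 higher in laser bone (log2 1.16, adjusted p = 0.0436).

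Laser against bur, the comparison within slides, called 0 of the 42 members, beside 0.00436% of all genes called higher and 0% lower. The 1 gene called was Hspa1a. No gene was called when laser replicate 3, control replicate 3 or any 1 bur array was left out. The same held with laser and bur arrays alone in the fit, with the mean of a gene's probes and on either treated slide alone. At an unadjusted p below 0.05 there were 6 members higher and 1 lower, beside 4.07% and 2.45% of all genes. The 6 were Dnaja1, Dnajb4, Dnajc25, Dnajb11, Dnajc1 and Dnajb1. The 1 lower was Dnajb13, whose signals were at background in laser bone and on all but 1 bur array. The median difference over all 42 members was 0.09 against 0.01 over all genes, and 28 members lay above the median of all genes. This lean was seen on the slide with replicates 1 and 2 (0.14 against 0.04, 31 members above) and not on the slide with replicates 3 and 4 (-0.02 against -0.0020, 20 members above).

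Dnaja1 had the largest difference above 0, 1.63-fold higher in laser than bur bone (log2 0.71, SE 0.13, unadjusted p = 0.000226, adjusted p = 0.260), and the 2 groups did not overlap. With slide as a block the difference was the same size and passed (SE 0.09, adjusted p = 0.0333), when 0.0393% of all genes were called higher. On the slide with replicates 1 and 2 it was 0.67 (SE 0.15) and on the slide with replicates 3 and 4 it was 0.74 (SE 0.14). The other differences were smaller, in Dnajb4 (0.37, SE 0.12), Dnajc25 (0.35, SE 0.12), Dnajb1 (0.33, SE 0.14), Dnajc1 (0.33, SE 0.13) and Dnajb11 (0.31, SE 0.12), with adjusted p between 0.616 and 0.736. Dnajc25 and the Dnajb4 probe used did not overlap between laser and bur samples, and the other 3 genes did. The further Dnajb4 probe read the other way (log2 -0.09, SE 0.13). Its laser samples, at -1.48 to -1.31, overlapped its bur samples, at -1.54 to -1.19. Dnajb13 was well above background on 0 laser arrays and 1 bur array. Both groups thus rest mostly on signals at background, so no fold is given (adjusted p = 0.717). With normexp its log2 difference was -0.03.

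**Figure D4:**
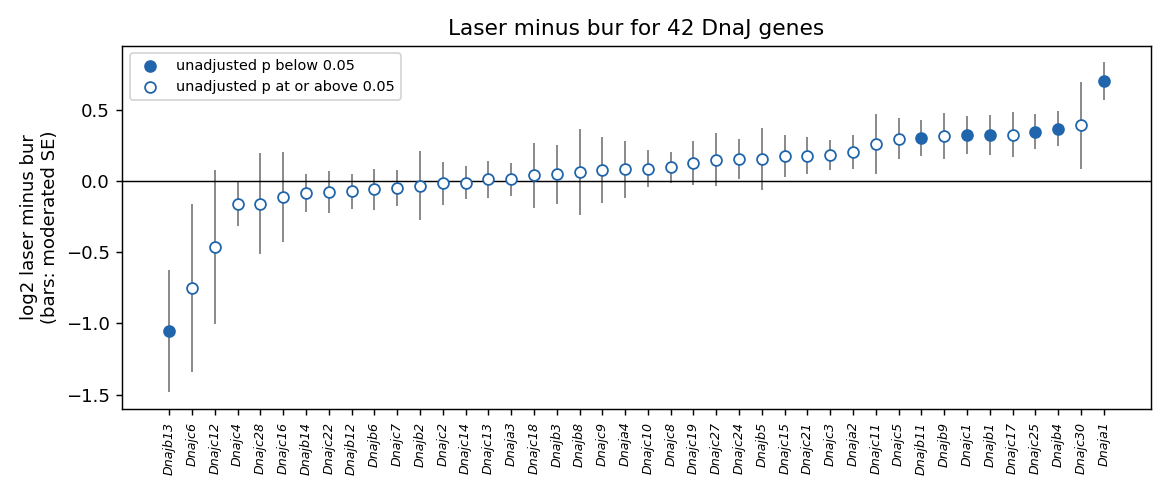
Log2 difference of laser minus bur (vertical axis, bars are moderated standard errors) for 42 DnaJ genes in order of size. Filled points have an unadjusted p below 0.05. Dnaja1 lies at 0.71, the next genes near 0.4, and Dnajb13 at -1.05. The Dnajb13 point uses signals at background in laser bone and on all but 1 bur array.

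The Hsp70 machinery that DnaJ proteins serve was read from a list of 33 genes, of which Hspa1b and Hspa1l were not among the genes tested. Of the 31 measured, 12 rose and 5 fell in laser bone, 10 rose and 9 fell in bur bone, and 1 was higher in laser than bur bone. Over all genes, 32.2% were called higher and 17.6% lower in laser bone, and 32.7% and 18.3% in bur bone. In laser against bur bone 0.00436% of all genes were called higher. Hspa1a, the stress-inducible Hsp70, read 4.53, 4.56, 5.64 and 6.14 in laser samples, 1.0, 1.5, 1.58 and 1.31 in bur samples and -0.35, 0.84, 0.64 and 0.97 in control samples. Its laser minus bur difference was 3.87 (SE 0.39, adjusted p = 0.0174), beside 0.71 for Dnaja1 and 0.33 for Dnajb1 on the same scale. That call was lost in the settings named above with the laser against bur calls. Hsph1, an Hsp110 that recharges Hsp70 with ATP, rose in laser bone (log2 0.95, SE 0.22, adjusted p = 0.00461) and fell in bur bone (log2 -0.62, SE 0.22, adjusted p = 0.0333). The difference between the treatments was 1.57 (SE 0.22, adjusted p = 0.117) and did not pass. Hspa8, the constitutive Hsp70 of the cytosol, rose in laser and bur bone (log2 0.94 and 0.65, SE 0.11 each, adjusted p = 0.000197 and 0.00111).

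Among 9 nucleotide exchange factors 4 rose in each comparison, and 1 fell in laser and 2 in bur bone. Beside them, 32.2% of all genes rose and 17.6% fell in laser bone, and 32.7% and 18.3% in bur bone. Bag3, induced by heat shock factor 1, rose by 1.15 in laser and 0.84 in bur bone (SE 0.24 each, adjusted p = 0.00315 and 0.0145). Sil1, the exchange factor of BiP in the ER, rose by 1.13 and 1.20 (SE 0.17 each, adjusted p = 0.000473 and 0.000396). St13 and Stip1, which couple Hsp70 to Hsp90, fell in both (log2 -0.51 and -0.71 for St13, log2 -0.46 and -0.61 for Stip1). The heat shock factor gene Hsf1 did not pass (adjusted p = 0.179 and 0.119), while Hsf2 rose by 0.68 and 0.51 (SE 0.11 each). Among J-domain proteins with other names, Sec63 of the ER translocon rose by 0.92 and 0.77 (SE 0.12 each), Hscb of mitochondrial iron-sulphur assembly fell by 1.03 and 1.16 (SE 0.30 each), and Gak, an auxilin relative outside nerve tissue, did not pass.

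For 11 members the array held several probes that passed the filter on dim signal, 24 in all, and their calls, adjusted over all 30121 probes, often differed within a gene. Some probes of a gene passed and others did not for 5 of the 11 in laser bone and 6 in bur bone. The Dnajc7 probe used rose in bur bone (chr10:89526927-89526986, log2 0.34, SE 0.13, adjusted p = 0.0487), while the further probe, at chr10:89533699-89533758, fell in both laser and bur bone (log2 -0.44, SE 0.12 each, adjusted p = 0.0129 and 0.0121). The direction of Dnajc7 therefore depends on the probe, and no direction is given for the gene. A further probe of Dnajc13, which works on endosomes, fell by 0.74 and 1.0 (SE 0.18 each), whereas the probe used read 0.04 and 0.02. A further probe of Dnajc19, of the mitochondrial import motor, rose by 0.70 and 0.63 (SE 0.14 each), and the probe used did not pass (log2 0.39 and 0.26, SE 0.16 each). A further probe of Dnajc27 rose in bur bone (log2 1.04, SE 0.29) and the probe used did not (log2 -0.08, SE 0.19). A further Dnaja3 probe is given with the mitochondrial members above. A further Dnajc1 probe read 0.08 and -0.12 (SE 0.13 each). Both Dnajc4 probes rose in both comparisons.

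**Figure D5:**
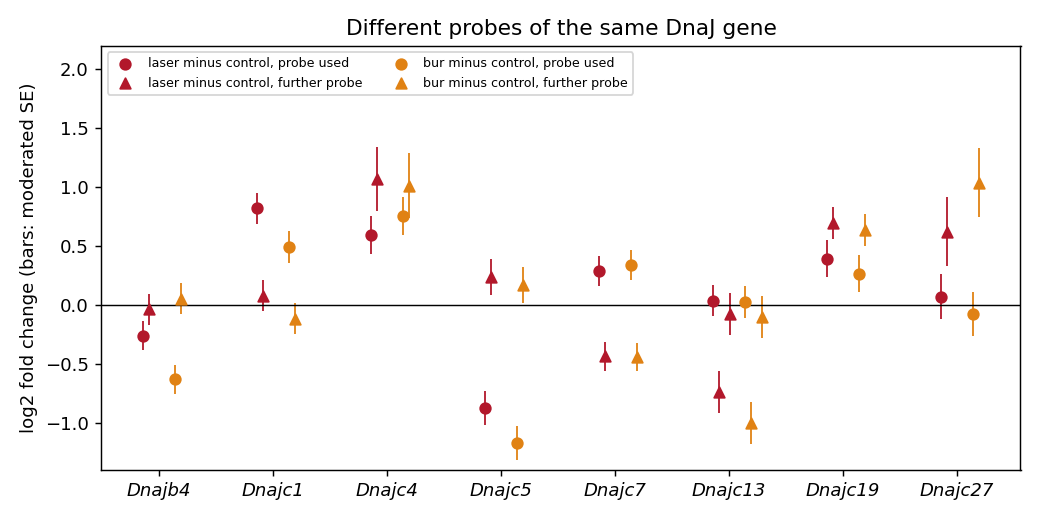
Log2 fold change (vertical axis, bars are moderated standard errors) of the probe used (circles) and further probes (triangles) of 8 DnaJ genes in laser minus control (red) and bur minus control (orange) bone. The Dnajc7 probes lie on opposite sides of 0 in both comparisons, at 0.29 and -0.44 in laser bone, and both Dnajc4 probes lie above 0.

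The authors' deposited tables of comparisons held the probe used here for 37 of the 42 members. The tables called 13 of them higher and 8 lower in laser against control bone, 8 higher and 9 lower in bur against control bone, and 0 in laser against bur bone. The sign was that found here for 35, 34 and 35 of the 37 probes.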

How the data were processed

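Spot intensity values were deposited by the authors for each array, which came from Agilent Feature Extraction (version 11.0.1.1, as stated per the file headers), and hold a background-subtracted processed signal beside marks for outliers and for spots well above background. Quantile-normalized log2 values of all arrays were also deposited by the authors, with comparison tables that give log2 fold changes and raw and adjusted p-values. The model behind those tables is not stated in the labels.

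Here processed signal was log2 transformed, control and outlier spots were left out, spots were averaged to 45598 probes, and each array's 75th percentile was subtracted. The number of arrays limits the precision. Probes well above background on at least 4 of 12 arrays (30121) gave 22926 genes, 1 probe each. Names are those in the files, and probe coordinates are on RGSCv3.4. Groups, taken from titles, were tested in R 4.3.3 by limma 3.58.1 (lmFit, eBayes, 1 fit of 12 arrays, two-sided, Benjamini-Hochberg over all genes, threshold 0.05). Standard errors are limma's moderated ones. Scripts were tested on simulated data.

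Members, lists and alternatives were chosen with earlier results of these data known. Named were members passing laser against bur, the 8 largest rises and falls among passers in each comparison with control, and 11 members listed by role. Alternatives covered scaling, background (normexp, offset 50), filters, several probes, groups in the fit, blocks for replicate number or slide, trend, weights and leaving out each array. The authors' deposited normalized values were refitted with the same limma model, and results given for that table are from this refit. Use of 1 treated slide at a time was added after seeing the data. Bounds take a dim group at no less than the lowest signal called well above background. A listed partner gene is not reported here, while counts include it.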

Additional observations from a re-analysis of the deposited data

Results flagged for a closer look

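In 81 groups of 4 arrays, formed by 27 members that the text names, 3 had a sample whose gap to its nearest neighbour exceeded Dixon's critical share of the group's range. Chance marks about 1 in 20 such groups. Dnajc5 in laser replicate 2 read -0.48, while the other laser samples read -0.25 to -0.22. Dnajb3 in control replicate 3 read -3.56, while the other control samples read -3.31 to -3.27. Dnajc15 in control replicate 2 read 1.62, while the other control samples read 1.26 to 1.31. None of the 3 calls in laser or in bur bone was lost when any 1 array of the groups compared was left out.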

How the results depend on the processing

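Of 62 values of single members, 36 passed, and 18 of those kept their call and direction in every setting followed for that value. Settings that did not hold the gene, and omissions of an array outside the groups compared, were not counted. The calls of Dnajc7 and Dnaja2 rested on the setting, and Dnajc7 in bur bone, called at 0.34, read -0.0527 with the mean of its probes. The members that passed in laser against control bone numbered 10 to 13 higher and 6 to 8 lower when 1 laser or control array was left out, and 14 higher and 8 lower without bur replicate 1, which enters the shared estimate of variance. Those in bur against control bone numbered 8 to 10 higher and 7 to 8 lower when any 1 array was left out. With only the laser arrays of replicates 3 and 4, 5 members were lower in laser bone, and the fewer arrays of that fit leave fewer degrees of freedom. In laser against bur bone 1 member, Dnaja1, was called higher with slide as a block. The median of the members in bur bone was -0.0761 with median scaling, which lowers treated arrays relative to control. Samples with the same replicate number deviated together with correlations from 0.05 to 0.58. Between laser and bur samples, which also share a slide, these were 0.58, 0.05, 0.53 and 0.40 for replicates 1 to 4. Samples of unlike number were not compared in this way, so whether replicate numbers pair the samples cannot be told. With replicate number as a block Dnajc12 passed in laser bone and Dnajb13 in bur bone, no other call of a named member changed, and the calls were 12 higher and 8 lower in laser bone, 10 and 8 in bur bone, and 0 in laser against bur bone.

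All other changes of sign were in values that had not passed. In laser against control bone Dnajc2 read -0.161 with quantile normalization, -0.0553 with the percentile over probes detected on all arrays, -0.0535 with median scaling, -0.256 in the authors' deposited table and -0.0535 on the slide with replicates 1 and 2. In bur against control bone these were -0.113, -0.0165, -0.114, -0.236 and -0.113 for Dnajc2, and -0.0687 to 0.137 with 1 array left out. Dnajc3 in laser bone read -0.0972, -0.0981 and -0.0963 with quantile normalization, the other percentile and median scaling, -0.0064 with normexp, -0.150 in the authors' deposited table, -0.0303 on the slide with replicates 3 and 4 and -0.0212 to 0.0364 with 1 array left out. Dnajc7 in laser bone read -0.0742 with the mean of its probes. In bur bone Dnaja2 read -0.0647 with median scaling, -0.0443 in the authors' deposited table and -0.0404 on the slide with replicates 1 and 2. On the slide with replicates 3 and 4, bur against control was 0.0139 for Dnaja1, 0.0111 for Dnajb1 and 0.0529 for Dnajb11, and without 1 array Dnajb11 read -0.119 to 0.0261. The cause was not tested. Dim signal limits Dnajb5, Dnajb8, Dnajb13, Dnajc28 and Dnajc30, in the dimmest of 5 equal groups of genes.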
